A study of Mus musculus with 15 samples.

Results

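Growth-hormone-pulse-sensitive liver genes were followed through dietary restriction and the return to unrestricted feeding. The set holds 10 genes (Cyp2b9, Cyp2b13, Hsd3b5, Selenbp2, Cyp4a12a, Cyp7b1, Slco1a1, Elovl3, Bcl6 and Cux2) of the 23589 named loci in the deposited table, and some were chosen by their large measured DR to AL ratios in liver in these same libraries. Their DR values in liver are therefore a description and carry no test. RNA sequencing covered 3 diets and 5 tissues of male C57BL/6 mice: liver, colon, epididymal fat and, in the brain, hippocampus and hypothalamus. AL mice ate ad libitum and were 5 months old. DR mice, also 5 months old, had 40% dietary restriction for 1 month from 4 months of age. DR-AL mice had the same month of restriction, were then fed AL for 2 months and were 7 months old, so a difference between DR-AL and AL or DR cannot be told apart from age. No genetic alteration is named for any group. Each of the 15 libraries was made from RNA pooled from 5 mice, so there was 1 library per tissue and diet and no difference below has a replicate check.

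Growth hormone leaves the pituitary in pulses separated by long gaps in male rodents and more continuously in females. In hepatocytes each pulse activates the transcription factor STAT5b, and the pulse pattern sets which of many steroid- and drug-metabolising genes the liver transcribes. Genes kept on by the male pattern are called male-biased, genes held off by it female-biased, and loss of the pulses lowers the former and raises the latter. The genes described here sit on both sides of that divide and include BCL6 and CUX2, transcription factors that respectively repress female-biased genes and take part in the female programme.

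Each gene is given as raw read counts and as CPM, the counts per 1000000 counts on named loci of the library. Ratios are ratios of CPM, with a 95% exact interval that covers counting error alone and not the variation between mice. A gene was called when it differed at least 2-fold and averaged at least 10 counts over the 3 libraries of the tissue. The liver libraries held between 21767088 and 24734599 counts on named loci, within a range of 21767088 to 40500130 over all 15. Hepatocyte markers summed to 51511 CPM in AL liver, 62022 CPM in DR liver and 54196 CPM in DR-AL liver, with 9 of the 10 markers detected and Alb, the albumin gene, listed at 0 in every liver library. Kupffer cell markers ranged from 101 to 129 CPM, and cholangiocyte markers from 46.0 to 81.4 CPM. The DR-AL liver differed in several sets. Pericentral hepatocyte markers were at 20424 CPM in AL, 17432 CPM in DR and 12195 CPM in DR-AL liver, stellate cell markers at 577, 618 and 922 CPM, and adipocyte markers at 15.4, 15.5 and 86.1 CPM, the last mostly from the lipid droplet gene Cidec (249, 42 and 1819 counts). Their part in the DR-AL values of the 10 genes was not tested. In bulk tissue, fewer cells of a type and less RNA per cell cannot be told apart. The epididymal fat library of AL mice stood apart, because it carried hepatocyte markers at 7.98 to 29.8% of their AL liver level, and the values of the 10 genes in fat are given with that beside them.

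All 10 genes passed the filter in liver. Against AL, 4 were called higher in DR (Cyp2b9, Cyp2b13, Bcl6 and Cux2), 5 were called lower (Hsd3b5, Selenbp2, Cyp4a12a, Cyp7b1 and Elovl3), and Slco1a1 was not called. Cyp2b9 and Cyp2b13 passed the filter only through their DR counts. Of the 8 genes with at least 10 counts in AL liver, 2 were called higher and 5 lower. Among all 12823 genes that passed in liver, 5.48% were called higher and 2.93% lower. These counts are what the choice of genes used, so nothing is read from the gap. The split of calls depended on the scaling. Of all called genes 65.2% were higher in DR with CPM and 53.2% with log2(FPKM + 0.1), and the median log2 ratio of all genes moved from 0.08 to -0.03. The DR to AL direction of each of the 10 genes was the same under both.

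**Figure D1:**
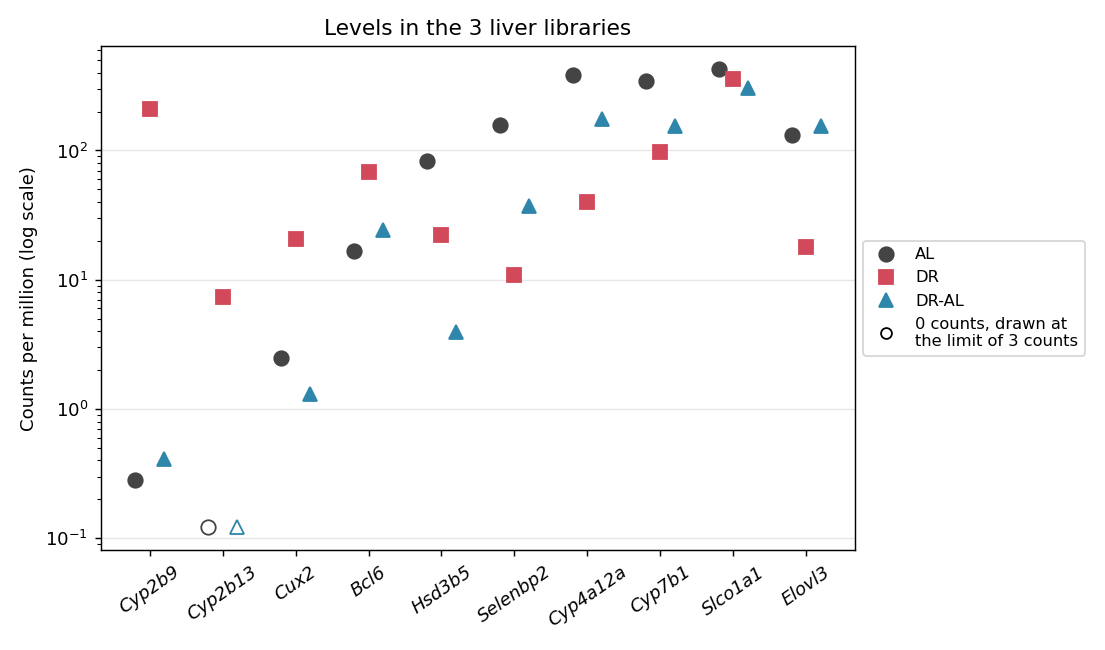
Levels of the 10 genes in the liver libraries of AL, DR and DR-AL mice, in CPM on a log axis, 1 point per library with no replicate error. Cyp2b9 reached 209 CPM in DR against 0.283 in AL, while Selenbp2 dropped to 10.8 CPM in DR from 158 in AL, and open symbols mark the 2 libraries in which Cyp2b13 had 0 counts.

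Cyp2b9 and Cyp2b13 encode female-biased cytochrome P450 enzymes and lie near each other on chromosome 7 of GRCm38 on the plus strand, Cyp2b9 at chr7:26173411-26210661 and Cyp2b13 at chr7:26061497-26096197, 77214 bases apart. The 250 bases upstream of their RefSeq start sites (GRCm38, chr7:26173159-26173408 and chr7:26061245-26061494) are shown because both genes were read almost only in DR liver. The sequences were identical at 248 of 250 positions (99.2%). Capitals mark the differing bases, T48C and C104T, counted from 1 at the 5′ end and with the Cyp2b9 base first.
Cyp2b9: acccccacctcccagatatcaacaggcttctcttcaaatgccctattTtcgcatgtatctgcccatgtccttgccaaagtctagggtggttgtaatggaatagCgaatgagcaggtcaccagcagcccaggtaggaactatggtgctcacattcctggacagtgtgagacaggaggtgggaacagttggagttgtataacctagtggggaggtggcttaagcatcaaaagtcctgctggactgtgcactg
Cyp2b13: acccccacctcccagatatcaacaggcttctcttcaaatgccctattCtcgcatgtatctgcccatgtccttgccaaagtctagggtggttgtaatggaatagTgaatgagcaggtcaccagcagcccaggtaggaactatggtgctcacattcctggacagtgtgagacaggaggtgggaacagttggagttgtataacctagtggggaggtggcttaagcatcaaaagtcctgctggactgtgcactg

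Cyp2b9 had 7 counts in AL liver, 4551 in DR liver and 10 in DR-AL liver, or 0.283, 209 and 0.408 CPM. The DR library stood far above both others, which overlapped within counting error. The DR level was 739-fold the AL level (358 to 1839) and the fifth highest ratio of the 12823 genes. The DR-AL level was 1.44-fold the AL level (0.496 to 4.47) and 512-fold lower than the DR level (278 to 1069).

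Cyp2b13 was counted 160 times in DR liver (7.35 CPM) and 0 times in the other two livers, where a count of 0 allows at most 0.121 CPM in AL and 0.122 CPM in DR-AL. Set against that limit of 3 counts, its DR level was at least 60.6-fold higher than AL, and the exact interval, which also covers the counting error of the 160 reads, began at 48.7-fold. With so near a neighbour, shared reads have to be considered. Of the 1802 windows of 75 bases, the read length, in the Cyp2b9 transcripts, 93 (5.16%) also occurred in Cyp2b13. Counts of Cyp2b13 came to 3.52% of those of Cyp2b9 in DR liver, so how many of its reads were its own was not tested. Cyp2b10, a further gene of the subfamily that is known for its induction through the receptor CAR, had 89, 315 and 160 counts in AL, DR and DR-AL liver.

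Cux2 and Bcl6 encode the transcription factors of the set. Cux2, female-biased in liver, lies at chr5:121856366-122050102 on the minus strand. It had 61 counts in AL liver, 451 in DR liver and 32 in DR-AL liver, or 2.47, 20.7 and 1.31 CPM. DR was 8.40-fold above AL (6.42 to 11.2). In DR-AL it was 1.89-fold lower than in AL (1.21 to 2.99) and 15.9-fold lower than in DR (11.1 to 23.5), so the library after refeeding was the lowest of the 3. Its relative Cux1, which is expressed more widely, had 455, 364 and 349 counts.

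Bcl6 lies at chr16:23965052-23988852 on the minus strand. Unlike the other male-biased genes, it is lowered by growth hormone through STAT5, so its transcript is known to increase where the hormone's signal is reduced. Its counts were 411 in AL liver, 1481 under DR and 595 after DR-AL, or 16.6, 68.0 and 24.3 CPM. The DR level was 4.10-fold the AL level (3.67 to 4.58). DR-AL stayed 1.46-fold above AL (1.29 to 1.66) and was 2.80-fold lower than DR (2.55 to 3.09).

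The upstream bases of Bcl6 are shown because they were the only ones among the 7 genes with a RefSeq promoter entry (Cyp2b9, Cyp2b13, Hsd3b5, Selenbp2, Slco1a1, Bcl6 and Cux2) to hold the STAT5 palindrome TTCNNNGAA. RefSeq gives Bcl6 more than 1 start, and the windows below are chr16:23988853-23989102 and chr16:23981284-23981533 of GRCm38, read on the minus strand, with the palindrome in capitals.
Bcl6, first start: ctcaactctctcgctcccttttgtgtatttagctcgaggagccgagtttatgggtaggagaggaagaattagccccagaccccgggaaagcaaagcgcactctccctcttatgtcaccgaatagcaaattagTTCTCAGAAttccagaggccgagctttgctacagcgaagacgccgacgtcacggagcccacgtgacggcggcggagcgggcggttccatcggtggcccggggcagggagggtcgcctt
Bcl6, second start: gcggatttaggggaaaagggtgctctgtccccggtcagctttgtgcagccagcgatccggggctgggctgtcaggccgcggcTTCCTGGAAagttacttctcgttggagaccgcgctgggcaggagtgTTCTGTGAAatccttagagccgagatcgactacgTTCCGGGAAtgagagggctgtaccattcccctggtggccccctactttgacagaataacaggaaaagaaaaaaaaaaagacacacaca

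The first window held 1 match, 118 to 110 bases before the start, and the second held 3, which began 168, 122 and 88 bases before it. Among 27025 promoters cut to the same 250 bases, 7.18% held the palindrome, which reads the same on both strands. The narrower form TTCCTNGAA, which overlaps the first match of the second window, occurred in 1.33% on either strand. The CUX2 core ATCGAT was found in 1 window, upstream of the second start of Cux2 itself, against 0.729% of all promoters, and ATTGAT in none of the 7 genes' windows, against 6.97%. The E-box CACGTG, the site of the clock factors, was found in the first Bcl6 window alone, against 6.05%. The D-box TTATGTAA, the site of DBP, was found in none, against 0.862%. The RefSeq window of Hsd3b5, chr3:98645535-98645784, lies apart from the GENCODE position printed for this gene. The windows of Selenbp2 and Cux2 overlap annotated exons of the same genes. Such matches describe the letters in these windows and say nothing of binding.

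Among the male-biased genes, Selenbp2 and Cyp4a12a differed most between AL and DR. Selenbp2 (chr3:94693556-94704413, plus strand) encodes a selenium-binding protein. It had 3907 counts in AL liver, 235 in DR liver and 913 in DR-AL liver, or 158, 10.8 and 37.3 CPM. DR was 14.6-fold lower than AL (12.8 to 16.8). DR-AL lay between them, 4.24-fold lower than AL (3.94 to 4.56) and 3.45-fold above DR (2.99 to 4.00).

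Its paralog Selenbp1 moved the other way, with 5983, 9089 and 3798 counts, 1.73-fold higher in DR than in AL (1.67 to 1.78). Transcript windows shared by both genes came to 738 of the 2674 in Selenbp2 (27.6%). The counts of Selenbp2 were 65.3% of those of Selenbp1 in AL liver, 2.59% in DR liver and 24.0% in DR-AL liver. When the paralogs were summed, the log2 ratio of DR to AL was 0.10, so the lower level held for Selenbp2 and not for the pair.

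Cyp4a12a (chr4:115299046-115332815, plus strand) encodes a male-specific fatty acid hydroxylase. Its counts were 9412 in AL liver, 874 under DR and 4286 after DR-AL, or 381, 40.2 and 175 CPM. DR was 9.48-fold lower than AL (8.84 to 10.2), and DR-AL was 2.18-fold lower than AL (2.10 to 2.26) and 4.36-fold above DR (4.05 to 4.69). Cyp4a12b, its close copy, shared 959 of 2348 windows (40.8%), and had 4136, 225 and 1682 counts, with the same order of the 3 libraries. The values of both copies are uncertain to the extent that reads could be split between them.

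Hsd3b5 (chr3:98618634-98630252, minus strand) encodes a male-specific steroid dehydrogenase of the 3-beta family. It was the only one of the 10 genes called lower in DR that was lower still after refeeding. It had 2042 counts in AL liver, 487 in DR liver and 96 in DR-AL liver, or 82.6, 22.4 and 3.92 CPM. DR was 3.69-fold lower than AL (3.34 to 4.08). DR-AL was 21.1-fold lower than AL (17.2 to 26.1), the third lowest ratio of the 12823 genes, and 5.71-fold lower than DR (4.58 to 7.18).

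Paralogs of Hsd3b5 were also low in the DR-AL library. Hsd3b2 had 578, 461 and 96 counts in AL, DR and DR-AL liver, at 0.906-fold the AL level in DR (0.800 to 1.03) and 5.96-fold lower than AL in DR-AL (4.80 to 7.48). Hsd3b3 had 4131, 4171 and 1494 counts, 2.74-fold lower in DR-AL than in AL (2.58 to 2.91). Hsd3b5 shared no 75-base window with either of them, and 173 of its 1475 windows (11.7%) with Hsd3b4.

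Cyp7b1 (chr3:18071950-18243338, minus strand) encodes the oxysterol hydroxylase of the alternative pathway of bile acid synthesis. It had 8543 counts in AL liver, 2127 in DR liver and 3812 in DR-AL liver, or 345, 97.7 and 156 CPM. DR was 3.53-fold lower than AL (3.37 to 3.71), and DR-AL was 2.22-fold lower than AL (2.14 to 2.31) and 1.59-fold above DR (1.51 to 1.68). Cyp7a1, the rate-limiting enzyme of the classical pathway, had 7061, 5958 and 6589 counts, 1.04-fold lower in DR than in AL (1.01 to 1.08).

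Elovl3 (chr19:46131897-46135694, plus strand) encodes an elongase of very long chain fatty acids. It had 3284 counts in AL liver, 393 in DR liver and 3773 in DR-AL liver, or 133, 18.1 and 154 CPM. DR was the low library by far, 7.35-fold below AL (6.62 to 8.19). DR-AL was 1.16-fold above AL (1.11 to 1.22) and 8.53-fold above DR (7.69 to 9.49). Elovl6, the elongase of shorter saturated chains, had its highest level in DR, with 1293, 2404 and 1071 counts.

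Slco1a1 encodes an organic anion transporter of the hepatocyte membrane and lies at chr6:141907282-141946962 on the minus strand. The table holds it as 1 locus with Slco1a4, so its values cover both genes. That locus had 10589 counts in AL liver, 7721 in DR liver and 7439 in DR-AL liver, or 428, 355 and 304 CPM. It was 1.21-fold lower in DR (1.17 to 1.24) and 1.41-fold lower in DR-AL (1.37 to 1.45) than in AL, short of the 2-fold limit in both. It was the only one of the 10 genes not called in DR.

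**Figure D2:**
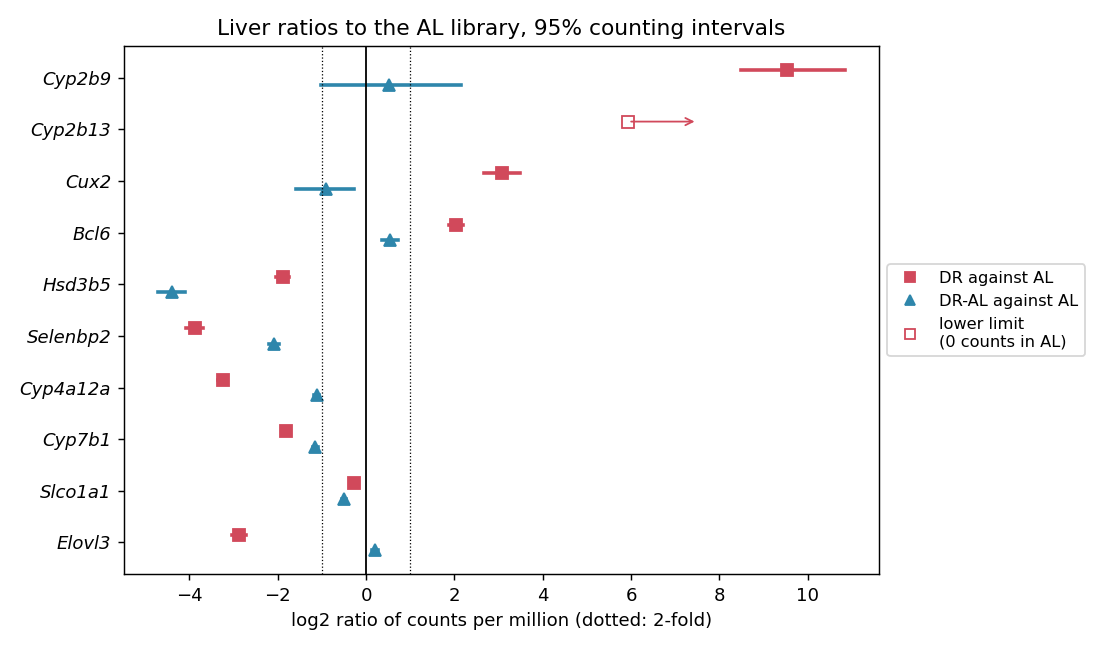
log2 ratios of CPM in liver for DR against AL (squares) and DR-AL against AL (triangles), with 95% intervals of counting error, dotted lines at 2-fold, and an arrow where AL had 0 counts. Cyp2b13 had 0 counts in both AL and DR-AL and has no DR-AL point. Elovl3 sat at 7.35-fold lower in DR and 1.16-fold higher in DR-AL, while Hsd3b5 was 21.1-fold lower in DR-AL.

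After refeeding, none of the 10 genes was called higher than AL and 4 were called lower (Hsd3b5, Selenbp2, Cyp4a12a and Cyp7b1), against 4.60% higher and 4.09% lower among all genes tested. Each of those 4 was also called lower in DR, but both comparisons use the same AL library, so their directions are not independent. All 4 genes called higher in DR were uncalled in DR-AL against AL. Elovl3 was the one gene called lower in DR and not in DR-AL. Measured from DR itself, Selenbp2, Cyp4a12a and Elovl3 were called higher in DR-AL and Cyp2b9, Cyp2b13, Cux2, Bcl6 and Hsd3b5 lower. Among all genes 6.04% were called higher and 10.1% lower. This comparison divides by the DR library, by which some of the genes were chosen. Calls opposite to those in DR were therefore favoured in advance, and nothing is read from them. The median log2 ratio of the 10 genes was -1.05 for DR against AL, -0.70 for DR-AL against AL and -0.85 for DR-AL against DR. The same medians over all genes were 0.08, -0.02 and -0.09. The 10 genes ran in both directions, from -3.87 to 9.42 for DR against AL. Their median therefore describes no general shift of the set.

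Levels can be compared between genes only per length, as FPKM. In AL liver the order from the highest was Cyp7b1 (372 FPKM), Cyp4a12a (310), Slco1a1 (226), Selenbp2 (181), Elovl3 (162), Hsd3b5 (93.9), Bcl6 (10.3), Cux2 (0.730), Cyp2b9 (0.290) and Cyp2b13 (0 FPKM). In DR liver Cyp2b9, at 202 FPKM, stood just below the joint locus of Slco1a1 and Slco1a4 at 213 FPKM and above Cyp7b1 at 98.1 FPKM. This gene, barely read in AL liver, was thus above the male-biased genes of the set called lower in DR. Those stood at 11.1 to 98.1 FPKM in DR liver, below their AL levels. Cyp2b13 and Cux2 remained at the bottom of the DR order, at 7.29 and 5.59 FPKM. In DR-AL liver Elovl3 headed the order at 186 FPKM, and Hsd3b5, at 4.50 FPKM, fell below Bcl6 at 15.1 FPKM. With 1 library per diet, no spread exists against which neighbours in these orders could be separated.

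Other liver genes known to follow the sex pattern of growth hormone were counted alongside. These lists were chosen with earlier results of these data known, so their counts are a description. Of 18 other male-biased genes, all of which passed, 11 were lower and none was higher in DR than in AL, with a median log2 ratio of -1.14. Among all genes tested, 2.93% were lower and 5.48% higher. Moxd1, a monooxygenase-like gene, had 167 counts in AL liver and 0 in both others. Among those with a mean of at least 100 counts, the largest differences were those of Cyp4a12b, C6, Susd4 and Alas2. Reads of Cyp4a12b could be split with Cyp4a12a, as described above. C6, a complement component, had 6140 counts in AL and 1278 in DR liver, and Susd4, a complement inhibitor, 1428 and 370 counts. Alas2, the erythroid enzyme of haem synthesis, had 2627 and 772. In DR-AL, 7 of the 18 were lower than AL and none was higher, with a median of -0.92. Of all genes tested, 4.09% were lower and 4.60% higher.

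Of 29 other female-biased genes, 21 passed the filter. In DR, 17 of these were higher than AL and none was lower, with a median log2 ratio of 1.83. The shares over all genes tested were 5.48% higher and 2.93% lower. Passing through a high DR library favours higher genes, and among the 18 with at least 10 counts in AL liver 14 were higher. Cyp2a4, a steroid hydroxylase, had 10, 511 and 12 counts in AL, DR and DR-AL liver, and Cyp2a22, of the same subfamily, 222, 1107 and 222. Cyp17a1, the steroid 17-alpha-hydroxylase, differed from these, with 246, 1340 and 1798 counts, and remained high after refeeding. In DR-AL, 3 of the 21 were above AL (A1bg, Cyp17a1 and Sult3a1) and none was below, with a median of 0.32. Over all genes tested, 4.60% were above and 4.09% below. A1bg and Sult3a1 had 1 count each in AL liver, and among the 18 genes with at least 10 counts there 1, Cyp17a1, was higher.

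**Figure D3:**
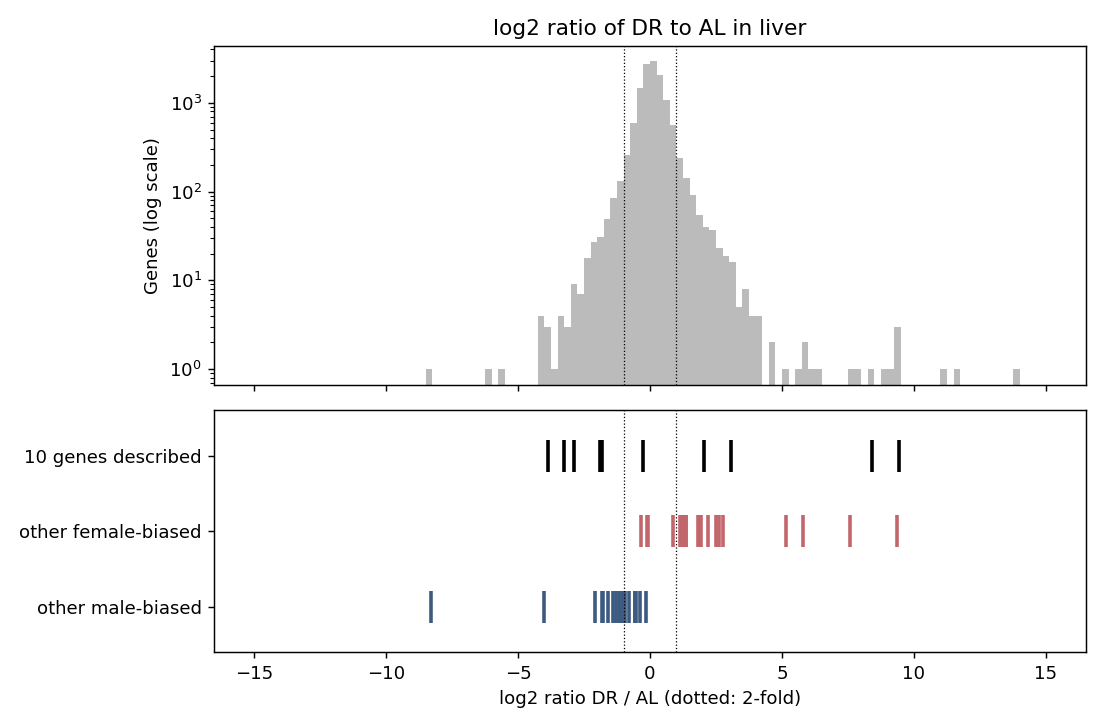
Distribution of the log2 ratio of DR to AL over all 12823 liver genes tested (top, number of genes on a log axis), and the 10 genes, the 21 other female-biased genes and the 18 other male-biased genes on the same scale (bottom, 1 bar per gene). The median was 0.08 for all genes, 1.83 for the other female-biased and -1.14 for the other male-biased genes.

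A list of 16 genes joined growth hormone receptor signalling with hepatocyte transcription factors such as Hnf4a. None of the 16 was called in DR, where the median log2 ratio was -0.12. Igf1, the secreted mediator of growth hormone, had 20208 counts in AL liver, 17960 under DR and 14164 after DR-AL. Ghr, the hormone's receptor, had 13748, 11113 and 8265 counts. Socs2 and Cish, feedback inhibitors that STAT5 induces, had 501, 360 and 544 counts and 204, 166 and 195 counts. In DR-AL, 1 of the 16 was called lower than AL, Igfals, the carrier subunit for IGF1. Its log2 ratio of -1.02 was only just past the 2-fold limit.

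Other regulated groups also differed between the 3 livers, and their part in the values of the 10 genes was not tested. A list of 12 genes joined PPAR-alpha, the fatty acid receptor that is active in fasting, with genes of its response and of fasting. In DR, 7 of the 12 were lower than AL and none was higher, against 2.93% and 5.48% of all genes tested. They included Cyp4a10 (83883, 17748 and 100377 counts in AL, DR and DR-AL) and Cyp4a14 (106229, 23441 and 231226). Vnn1 had 3997, 674 and 3984 counts and Pdk4 314, 101 and 1115, so that Elovl3 shared with them a low level in DR and a level at or above AL after refeeding. Of 12 genes that include the drug receptors CAR and PXR and their targets, 3 were higher in DR (Cyp2b10, Cyp2c55 and Gstm3). None was lower, against 5.48% higher and 2.93% lower among all genes tested. Gstm3 had 258, 5877 and 206 counts.

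Genes of the circadian clock differed between the 3 livers as well, and the hour of collection is not given in the sources used here. Of 12 measured clock genes 3 were higher and 1 lower in DR than in AL (5.48% and 2.93% of all genes), and 2 were higher and 6 lower in DR-AL than in AL (4.60% and 4.09%). Arntl, the partner of CLOCK, ran opposite to the Per genes, with 64 counts in AL liver, 7 under DR and 211 after DR-AL, and Npas2 had 4, 5 and 33. Dbp, the factor that binds the D-box, had 1417 counts in AL liver, 2758 under DR and 411 after DR-AL. Per2 had 587, 1435 and 221 counts and Per3 690, 1250 and 73. Bcl6 and Cux2 were likewise highest in DR, and Cux2 lowest in DR-AL.

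Over all 15 libraries, the pattern most like that of Cyp2b9 and Cyp2b13 belonged to a pair of loci that each carry several names of the major urinary proteins. They had 6476 and 1012 counts in DR liver and were listed at 0 in AL and DR-AL liver. Pearson's r of log2(CPM + 0.5) with Cyp2b9 was 0.991 and 0.988, and r with Cyp2b13 was 0.997 and 0.999. Reads of this multigene family may have been split between loci, so these values are uncertain. Outside DR liver Cyp2b9 and Cyp2b13 had at most 11 counts in any library. Each r therefore rests almost wholly on the DR liver library, by which some of the genes were chosen.

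The gene most like Selenbp2 was Dio1, the deiodinase that activates thyroid hormone (r = 0.976), with 4941, 1080 and 2822 counts, followed by Sdc1 (0.969). Hsd3b5 was most like the pseudogene Serpina4-ps1 (r = 0.991), with 433, 112 and 85 counts, and then Cmah (0.971). Cyp4a12a went with 4930480G23Rik (0.995) and Iigp1 (0.984), and Cyp7b1 with Sec14l2 (0.991) and Slc7a2 (0.979). Slco1a1 went with Cyp4f15 (0.979) and Onecut1 (0.979), and Elovl3 with Lap3 (0.983) and Amacr (0.982). The closest genes to Cux2 were Plxnb1 (0.974) and Nmral1 (0.971), and those to Bcl6, Pitpnm2 (0.909) and Ip6k2 (0.906). The points share their tissue in groups of 3, so differences between tissues enter each r, and it is given as a description among 9369 candidate genes.

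**Figure D4:**
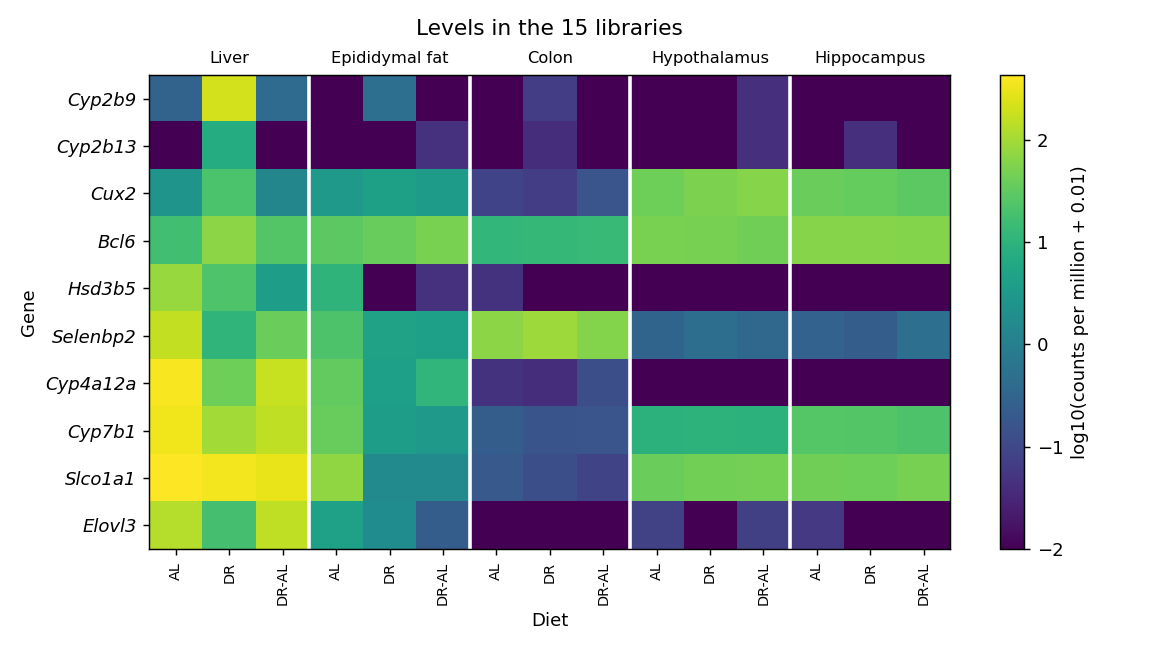
Levels of the 10 genes in each of the 15 libraries, as log10(CPM + 0.01), with darker colours for lower levels. Hsd3b5 and Cyp4a12a were close to 0 outside liver and fat, while Bcl6 was read in all 5 tissues and Selenbp2 in colon.

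In epididymal fat, 8 of the 10 genes passed the filter, and Cyp2b9 and Cyp2b13 did not, with at most 11 counts. The male-biased genes Hsd3b5, Selenbp2, Cyp4a12a, Cyp7b1, Slco1a1 and Elovl3 were all called lower in DR than in AL fat, where 4.85% of genes were, and all 6 again in DR-AL, where 4.93% were. Slco1a1 had 1897 counts in AL fat, 36 in DR fat and 43 in DR-AL fat, and Hsd3b5 274, 0 and 1. Both reached a substantial count in the AL library alone.

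Hepatocyte markers were also higher in AL fat than in DR or DR-AL fat. In AL fat the 6 genes stood at 12.7% (Hsd3b5), 13.9% (Selenbp2), 8.81% (Cyp4a12a), 10.6% (Cyp7b1), 16.9% (Slco1a1) and 3.42% (Elovl3) of their AL liver level. The 9 hepatocyte markers stood there at 7.98 to 29.8%, with a median of 12.1%. In DR fat the markers were at 0.0903 to 0.169% of DR liver, and in DR-AL fat at 0.0158 to 0.0357% of DR-AL liver. Markers of testis and epididymis, which adjoin this fat pad, summed to 911 CPM in AL fat, 3506 under DR and 6749 after DR-AL. The part of RNA from liver, testis or epididymis in the fat values was not tested.

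Some of the 6 genes exceeded the markers in fat of the other diets. In DR fat Selenbp2 stood at 43.8%, Cyp4a12a at 10.04%, Elovl3 at 9.70% and Cyp7b1 at 3.90% of their DR liver level, against 0.445% for Slco1a1. The DR liver levels in these ratios were themselves low, and as a share of AL liver the same 4 genes stood at 2.99, 1.06, 1.32 and 1.10% and the markers at 0.0933 to 0.193%. Counts of Selenbp2 were 10.8% of those of Selenbp1 in AL fat, 2.85% in DR fat and 4.16% in DR-AL fat. Given the windows this pair shares, its reads in fat may have been split, which was not tested. Cyp4a12a had 879, 92 and 305 counts in AL, DR and DR-AL fat. The counts of Cyp4a12b were 38.6% of those of Cyp4a12a in AL fat, near the 43.9% of AL liver, but 1.09% in DR fat and 3.61% in DR-AL fat. Bcl6, with 771, 816 and 1343 counts, was 1.67-fold higher in DR-AL than in AL fat by CPM (1.53 to 1.83). By FPKM the order was the reverse, at 5.74, 4.36 and 3.28 in AL, DR and DR-AL fat. The direction of Bcl6 in fat thus depended on the scaling. Cux2 had 79, 97 and 94 counts and FPKM values of 0.287, 0.219 and 0.110.

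**Figure D5:**
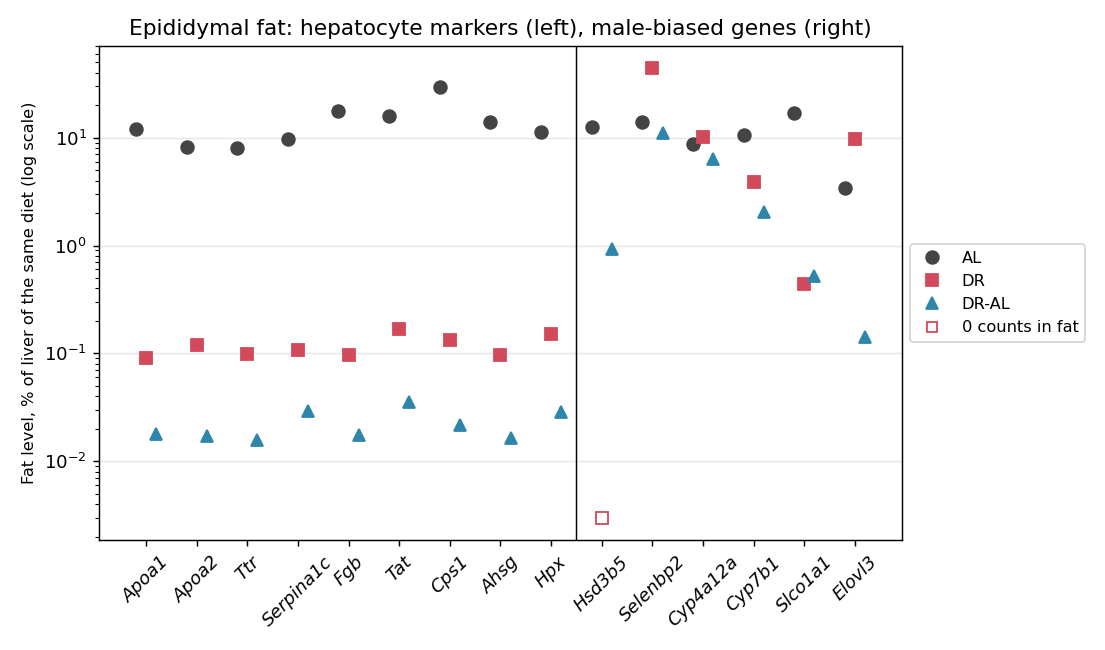
Level in epididymal fat as a percentage of the level in liver of the same diet, on a log axis, for 9 hepatocyte markers (left) and 6 male-biased genes (right), 1 point per library. In AL both sets lay between 3.42 and 29.8%, whereas in DR the markers were at most 0.169% and Selenbp2, Cyp4a12a and Elovl3 at 9.70% or more. Reads of Selenbp2 may have been split with its paralog Selenbp1.

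In colon only Selenbp2 and Bcl6 were above 10 counts. Selenbp2 had 1757 counts in AL colon, 2995 under DR and 1461 after DR-AL, or 66.2, 89.6 and 58.3 CPM, 1.35-fold higher in DR than in AL (1.28 to 1.44). Its counts were 6.01 to 7.08% of those of Selenbp1, which had 29246, 42314 and 24183, and given the shared windows the reads of the pair may have been split. Bcl6 had 304, 412 and 350 counts.

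In both brain regions Hsd3b5 and Cyp4a12a were at 0 counts in every library, and Cyp2b9, Cyp2b13 and Elovl3 were near 0. Selenbp2 had 9, 15 and 11 counts in AL, DR and DR-AL hypothalamus and 11, 7 and 12 in hippocampus, where its DR-AL level passed the 2-fold limit over DR, as did 1.23% of genes, at 2.13-fold with an interval of 0.772 to 6.38 that includes no difference. Cux2, which marks neurons of the upper cortical layers, had 1229, 1695 and 1908 counts in AL, DR and DR-AL hypothalamus (41.4, 51.8 and 61.1 CPM) and 1508, 1053 and 720 in hippocampus (37.2, 33.7 and 28.6 CPM). Relative to AL it was thus 1.48-fold higher in DR-AL hypothalamus (1.37 to 1.59) and 0.769-fold in DR-AL hippocampus (0.702 to 0.840). Neuron markers summed to 2701, 3034 and 3385 CPM in AL, DR and DR-AL hypothalamus. In hippocampus they summed to 7369, 7239 and 6733 CPM. The part of neuron content in the Cux2 values was not tested. Bcl6 had 1472, 1596 and 1321 counts in hypothalamus and 2506, 1966 and 1502 in hippocampus, within 0.853 to 1.02-fold of AL. The Slco1a1 and Slco1a4 locus was between 38.0 and 47.1 CPM in the 6 brain libraries, and Slco1a4 is the transporter of this pair known from brain capillaries. Cyp7b1 was lower in DR-AL than AL hippocampus, at 0.822-fold (0.739 to 0.912).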

How the data were processed

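Total RNA was isolated per mouse, pooled over the 5 mice of a group, depleted of ribosomal RNA and sequenced as stranded 75-base pairs. The authors aligned the reads with the Strand software and removed duplicates. Their methods name mm10, whereas the submitters' processing notes name mm9 and DESeq2, and the positions in the table matched GRCm38 for only 2 of the 10 genes, so printed positions come from GENCODE M21 (GRCm38) and promoters from RefSeq (GRCm38). The deposited table holds raw read counts per locus and FPKM values from the authors, for 33603 loci and 15 libraries.

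Loci without a gene name (0.258 to 0.292% of liver counts) were left out. CPM was computed from the counts on the 23589 named loci. The log2 ratios added 0.5 to counts that were scaled to the mean total of the libraries compared. A call needed a 2-fold difference and a mean of 10 counts. Fold intervals were exact (Clopper-Pearson, 95%) and cover counting error only, and a count of 0 was bounded at 3 counts. FPKM served to compare genes. With 1 library per group no p-value is given. Genes were named as the 10 members, their paralogs, up to 4 genes per direction and list with the largest ratio at a mean of 100 counts, and the 2 genes of highest r. One gene within this rule is not reported here. Igf1, Ghr, Socs2, Cish, Igfals, A1bg, Sult3a1, Cyp2c55, Moxd1, Arntl, Npas2, Hnf4a and Cidec fall outside these limits and were named after their values were seen. Members and lists were chosen with earlier results of these data known. The count ratios were tested on simulated libraries that held counting error alone, which says nothing of variation between mice or pools. Alternatives were edgeR 4.0.16 (TMM) and DESeq2 1.42.0 size factors, library totals that left out the 10 most abundant genes, other filters and folds, a Z test at 1.25-fold, FPKM with pseudocounts of 0.1 and 1, and summed paralogs. Tools were R 4.3.3, Python 3.11.15 and scipy 1.17.1.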

Additional observations from a re-analysis of the deposited data

Results flagged for a closer look

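Selenbp2 moved in opposite directions in colon and liver. The log2 ratio of DR to AL was 0.44 in colon and -3.87 in liver. The colon ratio was short of the 2-fold limit. Counts of Selenbp2 in colon were 6.01 to 7.08% of those of Selenbp1, so reads of the pair may have been split. With 1 library per tissue and diet the difference between tissues was not tested.

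Cux2 also moved in opposite directions for DR-AL against AL, with a log2 ratio of 0.56 in hypothalamus and -0.91 in liver. Both ratios were short of the 2-fold limit, and the liver ratio rests on 32 against 61 counts. The difference between these tissues was not tested either.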

How the results depend on the processing

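Of 146 counts of called genes computed under the alternatives, 123 stayed within 1.5 times the value reported, and of 180 log2 ratios of the 10 genes 127 stayed within the counting interval and 3 reversed. Under each of the other scalings, 4 of the 10 genes were higher and 5 lower in DR, as reported. With paralogs summed, 1 of them rather than 5 was lower in DR, and in DR-AL 2 rather than 4 were lower and 1 was higher. The sum reversed Selenbp2 in DR against AL (0.10) and in DR-AL against DR (-1.16) and Cyp4a12a in DR-AL against AL (0.73), because the more abundant paralogs carry the sum. Slco1a1 in DR-AL against DR, not called, also changed sign, from -0.22 to 0.28. At 3-fold, 2 of the 10 were lower in DR-AL, and the Z test called 1 higher. Other male-biased genes lower in DR numbered 5 at 3-fold and 17 by the Z test (11 as reported), and lower in DR-AL 12 at 1.5-fold, 3 at 3-fold and 16 by the Z test (7 as reported). Other female-biased genes higher in DR numbered 11 with a mean of 100 counts and 11 at 3-fold (17 as reported), and 1 was lower with no filter and 1 by the Z test. Higher in DR-AL were 8 with no filter, 1 with a mean of 100 counts, 6 at 1.5-fold, 6 by the Z test and 1 with FPKM + 1 (3 as reported), and lower were 1 with no filter, 2 at 1.5-fold, 3 by the Z test and 1 with FPKM + 0.1 (none as reported). Over all liver genes, the Z test called 3140 higher and 1727 lower in DR, and DESeq2 size factors 592 and 457, against 703 and 376. Cyp2b9 and Cyp2b13 rest on 0 to 10 counts outside DR, so their folds are known least precisely. No paired analysis was possible because each group has 1 library.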
